A study of Mus musculus with 8 samples.

Results

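The cytosolic translation initiation and elongation factors were followed across nuclei sorted from the mouse brain. The set held 63 of the 32285 genes counted. It was defined by symbol, with earlier results of these data known. Its members are the genes whose names begin with Eif1 to Eif6, Eef1 or Eef2, together with Tpt1 and Pabpc1. Left out were the eIF4E-binding proteins, the eIF2 kinases, the Eif2s3 genes and pseudogene symbols. Of the 63 genes, 62 had at least 1 unique molecular identifier (UMI, 1 counted RNA molecule), and together they held 360422 UMIs in the barcodes kept. Eif2c5, which the annotation lists as a long non-coding RNA, had 0 of 31883199 non-mitochondrial UMIs, which allows at most 0.0941 CPM. CPM are counts scaled to a common total of non-mitochondrial UMIs per sample. Eif4e1b had 1 UMI, Eef1akmt3 had 5 and Eef1akmt4 had 73, so these genes are counted but not described further.

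Single nuclei RNA sequencing was performed on the ventricular-subventricular zone (V-SVZ), the stem cell niche along the lateral ventricles, of 8 mice at postnatal day 90. The 4 Tsc2 wt/wt mice carried wild type Tsc2, and the 4 Tsc2 mut/mut mice carried the conditional Tsc2 allele on both copies. In the study's methods CRE recombinase both recombines that allele and switches on a tdTomato reporter at the Rosa26 locus, CRE comes from an electroporated plasmid or from a tamoxifen-induced Nestin transgene, and which of these was used for the sequenced mice was not given in the sources used here. The control mice also went through CRE delivery and carried the reporter, and 100000 tdTomato positive nuclei were sorted from each mouse of either genotype. The study examined the role of Tsc2, an inhibitor of the growth kinase mTORC1, in V-SVZ stem cells and their differentiation.

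Translation initiation factors bring the initiator tRNA, the mRNA cap and the ribosomal subunits together, and elongation factors carry aminoacyl-tRNAs to the ribosome and move it along the mRNA. eIF2 delivers the initiator tRNA and is recharged by eIF2B, eIF3 is a large scaffold on the small subunit, and the eIF4 proteins bind the cap and unwind the leader of the mRNA. Many of these mRNAs, like those of ribosomal proteins, begin with a cytosine followed by a run of pyrimidines, the terminal oligopyrimidine (TOP) motif, through which mTORC1 sets their translation. mTORC1 also acts on eIF4E through its binding proteins and on elongation through eEF2 kinase.

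The 8 libraries held 11182335 to 36773832 UMIs over 60000 barcodes each, and 37881 barcodes with at least 300 genes were kept. Only 2884 of these were nucleus-like (under 15% mitochondrial UMIs, 162 to 733 per mouse), whereas 33406 were mitochondria-rich (at least 30%, 1602 to 8940 per mouse). Pairs of libraries shared 1 to 15 kept barcodes and 0 nucleus-like ones. The nucleus-like barcodes of Tsc2 mut/mut replicate 4 stood apart, since 92.7% of them fell in the choroid plexus-like cluster, against 0.617% to 17.1% in the other mice, and the summed level of 8 choroid plexus markers was 278333 CPM there against 14774 to 108615 CPM. Results that rest on this library are therefore given with and without it. Tsc2 itself read 19.3 to 22.3 CPM in the 4 wt/wt mice and 15.2 to 21.5 CPM in the 4 mut/mut mice (log2 fold change -0.08, SE 0.15). The counts come from a 3′ kit, and where the Tsc2 reads lie relative to the part that recombination removes was not examined. This value therefore does not check the deletion.

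Known TOP mRNAs make up 11 members of the set (Eef1a1, Eef1b2, Eef1d, Eef1g, Eef2, Tpt1, Pabpc1, Eif3e, Eif3f, Eif3h and Eif4b). The 30 bases around annotated starts are shown for members that the comparisons below turn on, 15 before and 15 from the start, 5′ to 3′ on the gene's strand, from RefSeq on GRCm38.p6. Capitals mark a C followed by at least 4 C or T. The windows are Eef1a1 at chr9:78481710-78481739 (minus strand), Eif3f at chr7:108934400-108934429 (plus), Eif4b at chr15:102073758-102073787 (plus), Eef1b2 at chr1:63176816-63176845 (plus), Eef2 at chr10:81176616-81176645 (plus), Tpt1 at chr14:75845241-75845270 (plus), Eif4g3 at chr4:137993440-137993469 (plus) and the most upstream start of Eef2k at chr7:120842816-120842845 (plus).
Eef1a1: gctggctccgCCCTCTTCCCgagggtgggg
Eif3f: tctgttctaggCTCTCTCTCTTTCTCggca
Eif4b: ggtCTTCCCgtcggacgccgcgccaCCCCC
Eef1b2: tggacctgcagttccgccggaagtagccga
Eef2: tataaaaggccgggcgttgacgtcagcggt
Tpt1: gtcaccgctgacgacagttccgggggagcc
Eif4g3: aaagctccgagcggccgtcctgccggactg
Eef2k: tgcgccccgtgcgtcagtcccgccccagcc

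The run of capitals covered the annotated start of Eef1a1 and of Eif3f, and Eif4b held shorter runs at either end of its window. Whether the mRNAs begin at these annotated starts was not tested, so the capitals are not shown to be the TOP motif. The windows of Eef1b2, Eef2 and Tpt1 held none, so these letters at the annotated start did not mark all known TOP mRNAs. Of the 6 TOP members in the promoter table, 3 had the run. Over all 48 members in the table the share with the run at 1 or more starts was 33.3%, and over the 27025 genes in the table it was 40.3%. Searched on either strand of the 32851 promoters, the run was present in 36.4% on the gene's strand and 40.8% on the other.

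The first comparison asked where the RNA of these genes was found, in nucleus-like or in mitochondria-rich barcodes of the same mouse. Translation factor RNA made up 0.326% to 0.738% of the non-mitochondrial UMIs of nucleus-like barcodes in 7 mice (median 0.501%) and 1.27% in Tsc2 mut/mut replicate 4. In the mitochondria-rich barcodes of the 8 mice the share was 1.34% to 1.61%. The groups did not overlap. The TOP members moved most of this share, with 0.114% to 0.394% of nucleus-like UMIs in 7 mice (0.722% in Tsc2 mut/mut replicate 4) and 0.836% to 1.08% of mitochondria-rich UMIs.

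Ribosomal protein genes, which are the larger TOP family, made up 1.38% to 4.44% of nucleus-like UMIs in 7 mice (10.8% in the eighth) and 21.9% to 24.9% of mitochondria-rich UMIs. A list of 7 RNAs retained in the nucleus ran the other way, with 2.55% to 4.22% of nucleus-like UMIs in 7 mice (0.156% in Tsc2 mut/mut replicate 4) and 0.0521% to 0.152% of mitochondria-rich UMIs. Kcnq1ot1, Malat1, Neat1, Meg3 and Snhg11 of this list were higher in nucleus-like barcodes, whereas Rian was lower by 1.95 (log2 fold change -1.95).

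Of the 58 members tested by edgeR with the mouse as a block, 43 were lower in nucleus-like than in mitochondria-rich barcodes, 5 were higher and 10 did not pass. Across all 10762 genes tested, 39.1% were lower and 39.2% were higher in nucleus-like barcodes. The median log2 fold change, nucleus-like over mitochondria-rich after TMM scaling, was -1.31 over the members and -0.03 over all genes. Scaling matters for this comparison. Without TMM the median of all genes moved to 0.57 and that of the members to -0.71, 34 members were lower and 12 higher against 26.8% and 50.3% of all genes (77.1% in either direction), and the members' median stayed 1.28 below that of all genes (-1.28 under either scaling).

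**Figure D1:**
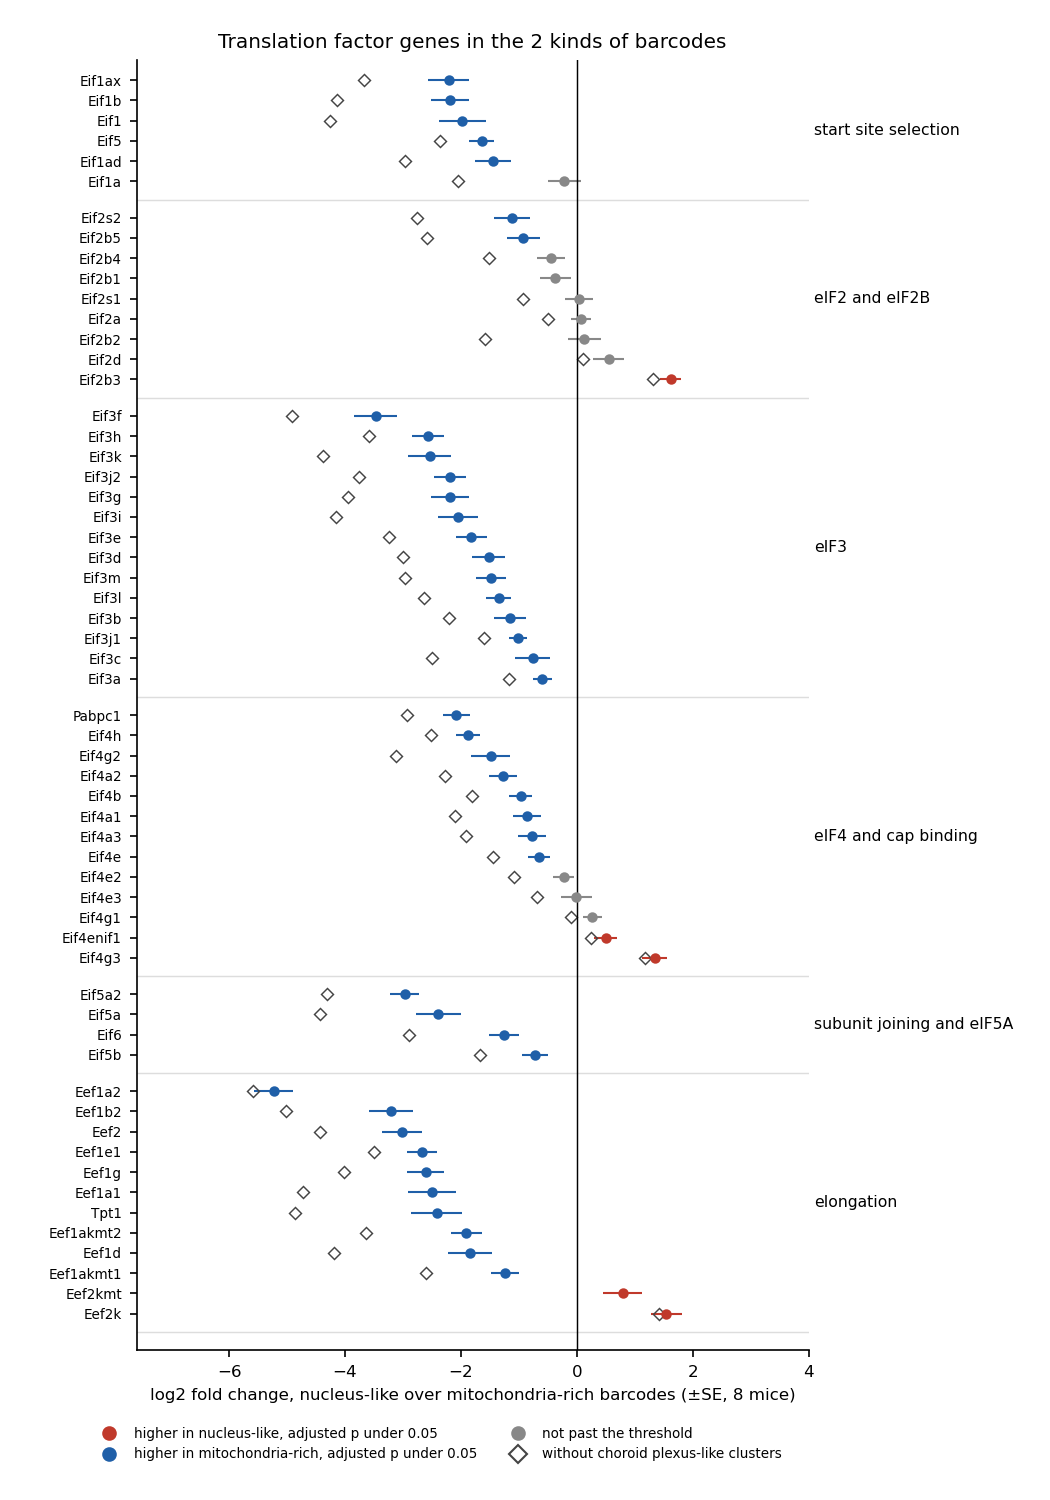
Log2 fold change of each translation factor gene, nucleus-like over mitochondria-rich barcodes (x axis, with SE), in 8 mice, with genes grouped by role on the y axis. Red and blue points passed adjusted p 0.05, gray points did not, and open diamonds give the value without the choroid plexus-like cluster. All 14 eIF3 genes lie below 0, whereas Eif2b3, Eef2k and Eif4g3 lie above 1.

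Several elongation factors were among the members with the largest differences. Eef1a1, which encodes the main carrier of aminoacyl-tRNA, read 1308, 559, 340 and 766 CPM in the nucleus-like barcodes of wt/wt replicates 1 to 4 and 526, 985, 816 and 2481 CPM in those of mut/mut replicates 1 to 4. In mitochondria-rich barcodes it read 3421, 3193, 3480 and 3061 CPM in the wt/wt mice and 2638, 3436, 2494 and 2851 CPM in the mut/mut mice. Every mouse was lower in its nucleus-like barcodes, and Tsc2 mut/mut replicate 4 was the highest of the nucleus-like values, just under the lowest mitochondria-rich one (log2 fold change -2.50, SE 0.41, adjusted p = 0.000121 by edgeR).

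Eef1a2 encodes the neuron and muscle form of the same factor. Its level was 7.83 to 32.2 CPM (median 19.7) in nucleus-like and 376 to 578 CPM (median 492) in mitochondria-rich barcodes. The 2 kinds were far apart in all 8 mice, Tsc2 mut/mut replicate 4 included, and this was the largest difference among the members (log2 fold change -5.23, SE 0.33).

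Eef2, the factor that moves the ribosome along the mRNA, read 183, 127, 101 and 144 CPM in nucleus-like barcodes of the wt/wt mice and 134, 197, 164 and 363 CPM in those of the mut/mut mice. Its mitochondria-rich levels were 737 to 994 CPM, above every nucleus-like value (log2 fold change -3.01, SE 0.34). Among the subunits that recharge eEF1A, Eef1b2 differed by -3.21, Eef1g by -2.61 and Eef1d by -1.85 on the same log2 scale. Eef1d overlaps Naprt on the same strand, so its count is less certain, and it was lower in nucleus-like barcodes of 7 rather than 8 mice. Eef1e1, a scaffold protein of the aminoacyl-tRNA synthetase complex, differed by -2.67.

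Tpt1, which encodes the translationally controlled tumor protein, followed Eef1a1 closely. It read 1613, 614, 279 and 787 CPM in nucleus-like barcodes of the wt/wt mice and 537, 1174, 1028 and 2879 CPM in those of the mut/mut mice. Its mitochondria-rich levels were 2764 to 3537 CPM (log2 fold change -2.42, SE 0.44). Again every mouse was lower in nucleus-like barcodes, and only Tsc2 mut/mut replicate 4 reached the range of the mitochondria-rich values.

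Of the 12 genes tested that were grouped under elongation by symbol, 10 were lower and 2 were higher in nucleus-like barcodes. This group also holds Tpt1, Eef1e1 and enzymes that modify the elongation factors, and both higher genes encode such enzymes. Eef2k, the kinase that inactivates eEF2, was one of the latter. It read 65.2, 65.7, 54.5 and 66.2 CPM in nucleus-like barcodes of the wt/wt mice and 77.5, 65.2, 56.0 and 10.5 CPM in those of the mut/mut mice, against 6.25 to 16.3 CPM in mitochondria-rich barcodes. It was higher in nucleus-like barcodes of 7 mice and lower in Tsc2 mut/mut replicate 4 (log2 fold change 1.55, SE 0.27). Eef2kmt, a lysine methyltransferase of eEF2, also passed (0.79, SE 0.34, adjusted p = 0.0463 by edgeR), but it passed only when wt/wt replicate 2 or 3 was the mouse left out, and it was at 0.33 (SE 0.22) without Tsc2 mut/mut replicate 4.

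**Figure D2:**
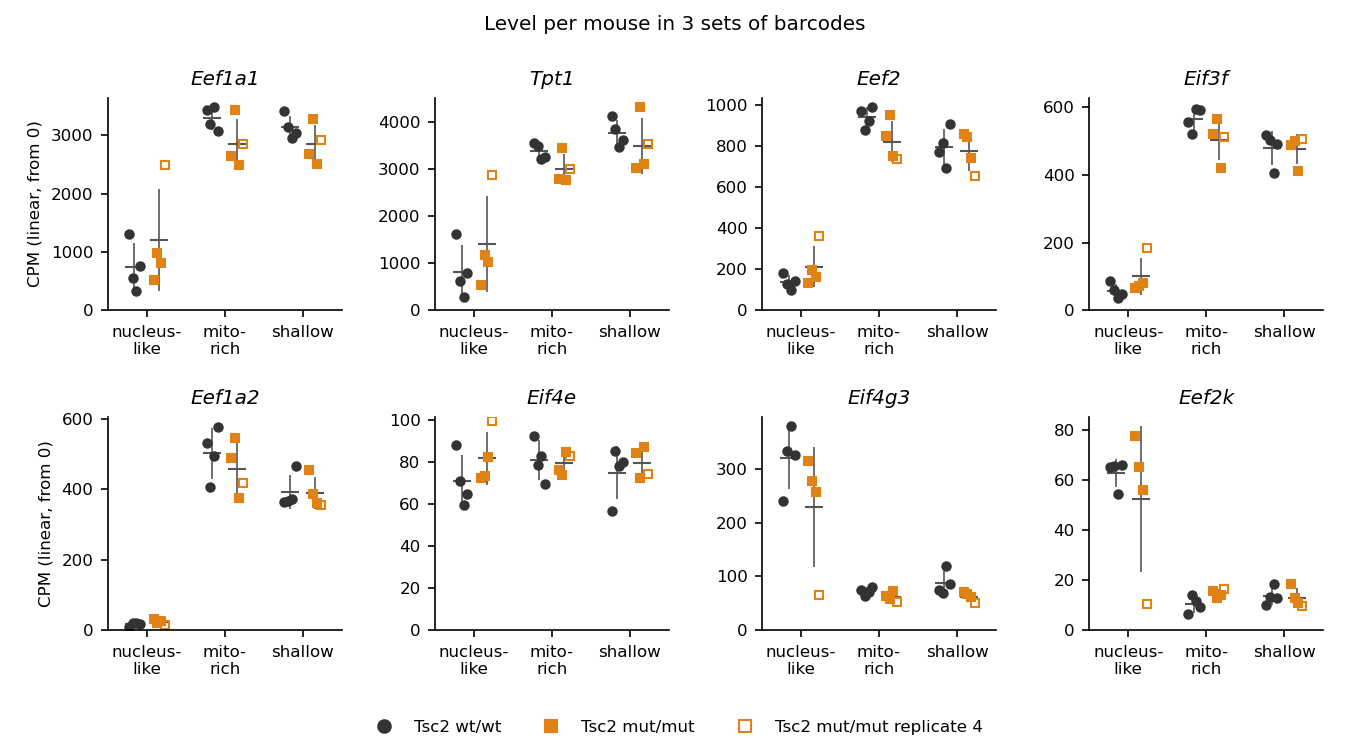
Level per mouse in CPM (linear y axis from 0) of 8 translation factor genes in nucleus-like, mitochondria-rich and the shallowest barcodes, with 1 point per mouse, black for Tsc2 wt/wt and orange for Tsc2 mut/mut (replicate 4 open), and lines for the mean and SD of each genotype. Eef1a1, Tpt1, Eef2, Eif3f and Eef1a2 lie lower in nucleus-like barcodes of all 8 mice, and Eef2k lies higher in 7 of 8.

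All 14 eIF3 genes were lower in nucleus-like barcodes (median log2 fold change -1.67), although Eif3a moved to 0.01 without TMM scaling. Eif3f was the most different, with 86.1, 60.8, 36.3 and 50.1 CPM in nucleus-like barcodes of the wt/wt mice, 64.9, 71.7, 82.2 and 183 CPM in those of the mut/mut mice, and 419 to 594 CPM in mitochondria-rich barcodes (log2 fold change -3.47, SE 0.37). The highest nucleus-like value lay far below the lowest mitochondria-rich one. Eif3h differed by -2.57, Eif3k by -2.54 and Eif3e by -1.82. The smallest differences in eIF3 were those of Eif3a (-0.60) and Eif3c (-0.76), each lower in nucleus-like CPM in 5 of 8 mice.

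The genes with Eif2 symbols, grouped by symbol and not by complex, behaved less uniformly. Of 9 tested, 2 were lower in nucleus-like barcodes (Eif2s2, -1.12, SE 0.31, and Eif2b5, -0.92, SE 0.29), 1 was higher and 6 did not pass. The higher one was Eif2b3, a subunit of the exchange factor that recharges eIF2, with 17.5 to 45.6 CPM (median 38.3) in nucleus-like and 5.36 to 10.9 CPM (median 7.23) in mitochondria-rich barcodes. It was higher in nucleus-like barcodes of all 8 mice, with no overlap between the kinds (log2 fold change 1.62, SE 0.18). Eif2s1, Eif2a and Eif2b2 had log2 fold changes of 0.04, 0.07 and 0.13 after TMM, and of -0.92, -0.49 and -1.59 once the choroid plexus-like cluster was left out. They were already below 0 without Tsc2 mut/mut replicate 4 (-0.22, -0.07 and -0.26). Eif2b1 (-0.37), Eif2b4 (-0.44) and Eif2d (0.55) did not pass either.

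Among the 13 cap-binding and eIF4 genes tested, 8 were lower and 2 were higher. Pabpc1, the poly(A)-binding protein, read 78.3 to 127 CPM in nucleus-like and 231 to 310 CPM in mitochondria-rich barcodes (log2 fold change -2.08, SE 0.23). The paralogs of the helicase eIF4A were both lower, Eif4a2 by -1.27 (SE 0.24) and Eif4a1 by -0.86 (SE 0.24). Their scaffolds split. Eif4g3 read 242, 334, 381 and 327 CPM in nucleus-like barcodes of the wt/wt mice and 316, 278, 258 and 65.3 CPM in those of the mut/mut mice, against 52.8 to 80.5 CPM in mitochondria-rich barcodes (log2 fold change 1.34, SE 0.21). It was higher in nucleus-like barcodes of all 8 mice, although the value of Tsc2 mut/mut replicate 4 fell within the mitochondria-rich range.

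Eif4g1 did not pass (0.27, SE 0.16), with 43.1 to 124 CPM in nucleus-like and 40.5 to 64.4 CPM in mitochondria-rich barcodes, and Eif4g2, a relative that lacks the cap-binding part, was lower (-1.49, SE 0.33). Eif4enif1, which carries eIF4E into the nucleus, was higher (0.50, SE 0.20, adjusted p = 0.0329 by edgeR) and did not pass when any 1 of the wt/wt mice or of mut/mut replicates 2 and 3 was left out, nor without the choroid plexus-like cluster (0.25, SE 0.17). Eif4e, which binds the cap itself, had 59.4 to 99.1 CPM in nucleus-like and 69.3 to 92 CPM in mitochondria-rich barcodes. These CPM overlapped, and the difference of Eif4e after TMM was -0.65 (SE 0.19), near the shift of all genes between the 2 scalings. Eif4b differed by -0.97, Eif4a3 by -0.77, and Eif4e2 (-0.23, or 0.37 without TMM) and Eif4e3 (-0.01, or 0.61 without TMM) did not pass.

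Of the 6 genes grouped under start site selection by symbol, 5 were lower in nucleus-like barcodes, from Eif1ax (-2.21) to Eif1ad (-1.45). Eif1a did not pass (-0.21, SE 0.29). All 4 genes of subunit joining and eIF5A were lower. Eif5a2 stood at 1.64 to 7.47 CPM in nucleus-like against 19.2 to 28.1 CPM in mitochondria-rich barcodes (log2 fold change -2.97, SE 0.25), and Eif5b, the GTPase that joins the subunits, differed by -0.73 (SE 0.23).

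All 11 TOP members were lower (median log2 fold change -2.50), as were 81 of the 82 ribosomal protein genes tested (median -3.22). Translation regulators outside the set did not follow the members, and their median of 0.18 lay near the -0.03 of all genes. Of 27 tested, 12 were higher in nucleus-like barcodes and 7 were lower. Of the 8428 genes called among all 10762 tested, 50% were higher. The higher regulators included Eif2ak4 (2.49), Rptor (2.28), Rps6kb2 (2.00) and Mtor (1.12), and the lower ones Rps6 (-2.82), Pabpc4 (-2.65) and Eif4ebp2 (-0.86).

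The difference also followed the genomic span of the gene, from its first to its last annotated base. The 19 members under 10 kb had a median log2 fold change of -2.05, the 28 of 10 to 30 kb had -1.29, the 10 of 30 to 100 kb had 0.03, and the only longer one, Eif4g3 with 215.49 kb (chr4:137993022-138208508), had 1.34. All genes tested ran in the same order, with medians of -1.42, -0.46, 0.58 and 1.65 in the 4 classes of span. Across genes the correlation with log10 span was r = 0.54 (Spearman rho = 0.54) over the 58 members and r = 0.54 (rho = 0.56) over the 10758 genes with a span. Genes of 1 library share its depth and are not independent replicates. Eef2k (64.62 kb, chr7:120842831-120907450), Eif2b3 (67.91 kb, chr4:117019402-117087306) and Eif4enif1 (42.20 kb) are long for this set and were higher in nucleus-like barcodes. Eif3h (78.97 kb) and Eif5b (57.57 kb) are as long and were lower, and Eef2kmt was higher at 11.83 kb. The translation regulators outside the set differ in span too. Of those named above, the higher Rptor (296.67 kb), Mtor (109.07 kb) and Eif2ak4 (86.62 kb) are long, and the lower Rps6 (2.75 kb) and Eif4ebp2 (24.17 kb) are shorter. Rps6kb2 (9.36 kb, higher) and Pabpc4 (36.58 kb, lower) went the other way. The part of span in the contrast between regulators and members was not tested. Whether intronic reads were counted was not given in the sources used here, and the part of unspliced RNA in these values was not tested.

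**Figure D3:**
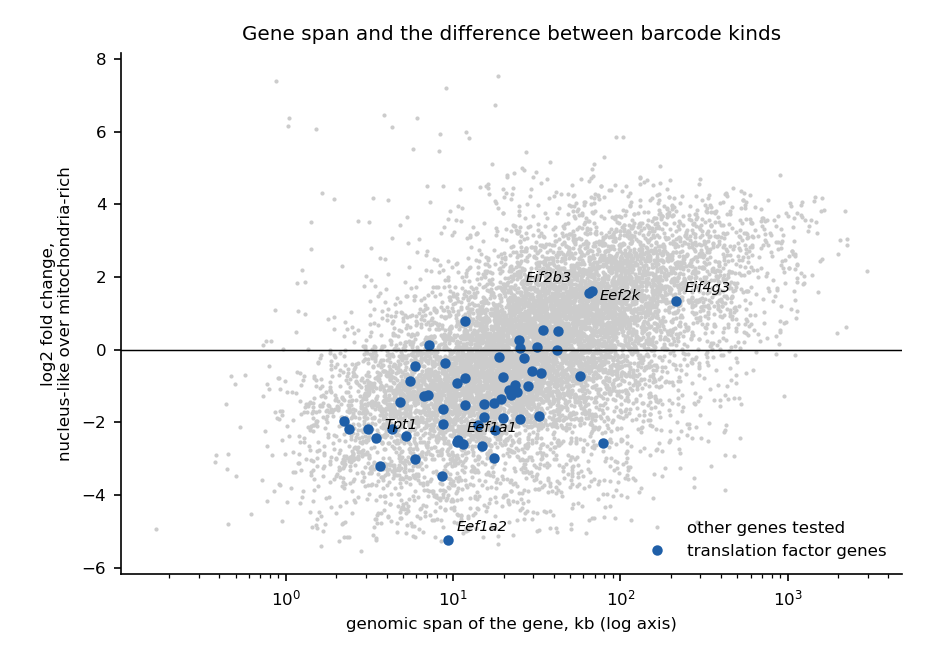
Genomic span in kb (x axis, log axis) against the log2 fold change of nucleus-like over mitochondria-rich barcodes (y axis), 1 point per gene, with translation factor genes in blue and all other genes tested in gray. Tpt1 and Eef1a1 sit low among short genes, and Eif2b3, Eef2k and Eif4g3 sit above 0 among long ones.

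Members whose annotated start held the pyrimidine run shown above for Eef1a1 and Eif3f did not stand apart in this comparison. The 14 with the run had a median log2 fold change of -1.06, and the 31 without it had -1.27. Only 3 of the 6 TOP members in the promoter table had the run, so this split cannot show whether the TOP motif matters.

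Without Tsc2 mut/mut replicate 4, 46 members were lower and 4 higher (background 42.3% and 43.3% of 11465 genes, 85.5% in either direction), with a median of -1.63. Without the choroid plexus-like cluster, 50 of the 56 members tested were lower (background 52.3%) and 3 were higher (background 35.2%, 87.5% in either direction), namely Eif2b3 (1.31), Eef2k (1.41) and Eif4g3 (1.17). The median was then -2.70 over the members and -0.52 over all genes. That fit held only 13 nucleus-like barcodes from Tsc2 mut/mut replicate 4, against 161 to 608 from the other mice. Eef1a1 moved to -4.72, Tpt1 to -4.86, Eif3f to -4.92 and Eef1a2 to -5.60. With the mut/mut mice alone, 24 members were lower and 2 higher, against 24.3% and 26.2% of 11117 genes (50.5% in either direction).

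For these genes the mitochondria-rich barcodes resembled the shallowest barcodes of the same libraries. In the 20000 barcodes with the fewest UMIs of each library, translation factors held 1.36% to 1.62% of non-mitochondrial UMIs. Over the 58 members with at least 100 mitochondria-rich UMIs, the mean difference between mitochondria-rich and these shallowest barcodes ran from -0.51 to 0.47 on the log2(CPM + 1) scale, with a median of 0.04, and 45 of the 58 were within 0.25. The same difference for nucleus-like barcodes had a median of -0.65. How much of the RNA in mitochondria-rich barcodes came from the surrounding solution was not tested.

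Cell classes were named from markers in clusters made without the translation factor genes, and levels by class are a description without a test. In nucleus-like barcodes the choroid plexus-like class had the highest levels of the main elongation factor and of Tpt1. The 7 RNAs retained in the nucleus made up only 0.00472% to 0.0967% of its non-mitochondrial UMIs (7 mice). In the other nucleus-like classes they made up 1.52% to 8.76% per mouse with at least 10 barcodes. Only their low mitochondrial share places these choroid plexus-like barcodes among the nucleus-like ones. Where nuclei of a class are named below, its nucleus-like barcodes are meant. Class and nuclear content therefore cannot be told apart in the levels of this class. Eef1a1 read 193 CPM (SD 46.3, 7 mice) in neural stem cell (NSC)/astrocyte-like, 239 in ependymal-like (6 mice), 308 in inhibitory neuron/neuroblast-like (4 mice), 360 in oligodendrocyte-like (7 mice) and 384 in microglia-like nuclei (7 mice), and 2787 (SD 336, 7 mice) in choroid plexus-like nuclei. The lowest choroid plexus-like mouse (2373 CPM) stood above the highest mouse of the other 5 classes found in 3 or more mice (636 CPM, oligodendrocyte-like), whereas neighbors in the order of those 5 classes overlapped. Endothelial-like nuclei reached 10 barcodes in only 2 mice and lay between, with 1064 CPM in wt/wt replicate 2 (91 UMIs in 12 barcodes) and 762 CPM in mut/mut replicate 1 (47 UMIs in 13 barcodes).

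Tpt1 showed the same step, from 170 CPM (SD 92.2) in ependymal-like and 182 CPM (SD 60.6) in NSC/astrocyte-like to 409 CPM (SD 180) in microglia-like nuclei and 3355 CPM (SD 534) in choroid plexus-like nuclei, with 1123 and 795 CPM in the endothelial-like nuclei of those 2 mice. For Eif4g3 and Eef2k the choroid plexus-like class lay at the low end instead. Eif4g3 was highest in NSC/astrocyte-like (447 CPM, SD 67.3) and microglia-like nuclei (413 CPM, SD 83.6), which overlapped, and lowest in choroid plexus-like nuclei (58.3 CPM, SD 19.8). Eef2k was highest in microglia-like (253 CPM, SD 67.8) and ependymal-like nuclei (188 CPM, SD 56.3), lower in inhibitory neuron/neuroblast-like (57.8 CPM, SD 15.4) and NSC/astrocyte-like (56.9 CPM, SD 12.2) and lowest in oligodendrocyte-like (19.1 CPM, SD 17.0) and choroid plexus-like nuclei (8.76 CPM, SD 8.04). No mouse overlapped between the microglia-like range of 139 to 359 CPM and the NSC/astrocyte-like range of 46.6 to 81.5 CPM.

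**Figure D4:**
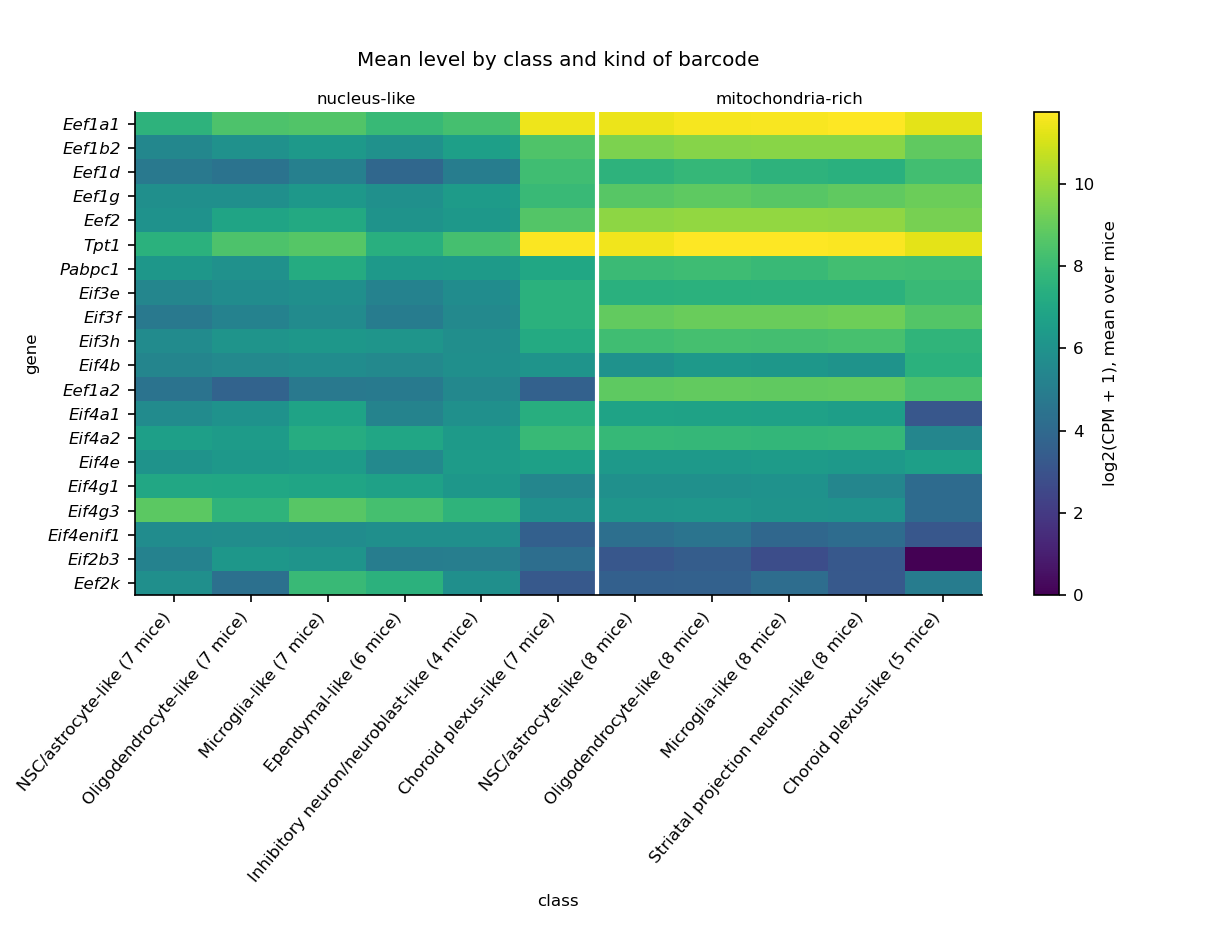
Mean over mice of translation factor genes (rows) in each class (columns, with the number of mice) of nucleus-like (left) and mitochondria-rich (right) barcodes, with color on the log2(CPM + 1) scale. Choroid plexus-like barcodes stand apart on the left, with Eef1a1 at 2787 CPM, and on the right Eef1a1 lies between 2764 and 3465 CPM in the 4 classes found in all 8 mice.

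Eef1a2, unlike its paralog, was low in every nucleus-like class, at 11.4 CPM (SD 7.01) in choroid plexus-like and 43.5 CPM (SD 18.9) in inhibitory neuron/neuroblast-like nuclei. In mitochondria-rich barcodes the 4 classes found in all 8 mice overlapped. Eef1a1 read 2764 CPM in NSC/astrocyte-like, 3078 in oligodendrocyte-like, 3187 in microglia-like and 3465 in striatal projection neuron-like barcodes, and Eef1a2, the neuron and muscle form, read 465, 487, 480 and 486 CPM in the same classes.

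Within a class, the median over the members was -2.39 in NSC/astrocyte-like, -2.77 in oligodendrocyte-like, -3.14 in microglia-like and 0.00 in choroid plexus-like barcodes, beside -0.13, -0.33, -0.69 and 0.24 over all genes. In NSC/astrocyte-like barcodes (7 mice), 41 of 47 members were lower in nucleus-like barcodes (background 46.6%) and 5 were higher (background 42.8%). Eef1a1 differed by -4.38, Tpt1 by -4.57 and Eef1a2 by -4.97, and the higher ones were Eif4g3 (2.07), Eef2k (1.70), Eif2b3 (1.66), Eif4enif1 (0.79) and Eif4g1 (0.51). In oligodendrocyte-like barcodes 30 of 33 were lower (background 48.2%) and 2 higher (40.8%), and in microglia-like barcodes 30 of 32 were lower (background 51%) and 2 higher (38.8%). In these classes the 2 kinds of barcode sat in different clusters, so what else differs between those clusters cannot be told apart from the kind.

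In choroid plexus-like barcodes, where both kinds sat in 1 cluster (5 mice), 2 of 22 members were lower (Eef1a2, -4.66, and Eif3f, -1.23, background 19.9%) and 2 were higher (Eif4g2, 1.11, and Eif1, 0.63, background 18%). Eef1a1 differed by 0.07 (SE 0.20) and Tpt1 by 0.39 (SE 0.20), and neither passed. The mitochondria-rich barcodes of this class held 148 Eef1a1 and 130 Tpt1 UMIs in the mice used. In these mice the RNAs retained in the nucleus made up 0.00501% to 0.0967% of the nucleus-like UMIs of this class. In its mitochondria-rich UMIs they made up 0.0665% to 0.240%, and only in mut/mut replicate 1 was the nucleus-like share the higher one. These mitochondria-rich shares rest on 5092 to 24274 non-mitochondrial UMIs per mouse, and so on few molecules of the list. In these counts a low mitochondrial share did not go with more nuclear RNA in this class, unlike in the other classes. The difference between the classes was not tested.

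The second comparison asked whether the translation factors differed between Tsc2 mut/mut and Tsc2 wt/wt mice. In all kept barcodes 0 of 59 members passed edgeR and 0 passed DESeq2, against 0.0155% of 12916 genes by edgeR (0.00774% in each direction). In such sums over barcodes, fewer cells of a type and less RNA per cell cannot be told apart. Only Eif5a2 had an unadjusted p under 0.05 (log2 fold change, mut/mut over wt/wt, 0.54, SE 0.22), as did 2.56% of all genes. The median over the members was 0.15, with 48 of 59 above 0 (81.4%, against 52% of all genes), and the TOP members had 0.13. The 8 choroid plexus markers had a median of 0.85, with 6 above 0, and their part was not tested. Without Tsc2 mut/mut replicate 4 the direction turned, with a median of -0.04 over the members, a TOP median of -0.11 and a marker median of -0.18. Then 21 of 59 members were above 0 (35.6%, against 50.1% of all genes). In that fit 0 members passed, against 0.0227% of 13219 genes (0.0151% higher and 0.00756% lower in mut/mut). Without TMM the members' median was 0.03. With all 8 mice, Eef1a1 was at 0.08 (SE 0.28), Tpt1 at 0.13 (SE 0.28), Eef2 at 0.04 (SE 0.23), Eif4e at 0.17 (SE 0.20) and Eef2k at 0.00 (SE 0.24).

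In nucleus-like barcodes 0 of 55 members passed (edgeR and DESeq2), with 0 at an unadjusted p under 0.05, and 0% of 10790 genes passed edgeR, with 1.57% at an unadjusted p under 0.05. The SE of the members ran from 0.24 to 0.88 on the log2 scale, so that the absence of calls does not show that they were alike. The log2 fold changes nevertheless leaned upward, with a median of 0.82 and a TOP median of 1.04, beside 0.01 over all genes. Of the 55 members 50 were above 0 (90.9%, against 50.4% of all genes). The 8 choroid plexus markers moved with them (median 1.58, 8 of 8 above 0), and their part in the lean was not tested. Without Tsc2 mut/mut replicate 4 the median over the members was 0.01 and the TOP median was 0.08. Of the members 30 were above and 25 below 0 (54.5% above, against 42.6% of all genes). In that fit 0 of 55 members passed, and 0 had an unadjusted p under 0.05, against 3.09% of all genes. Eef1a1 moved from 1.19 (SE 0.83) to -0.07 (SE 0.48), Tpt1 from 1.26 (SE 0.88) to 0.01 (SE 0.58), Eif3f from 1.21 (SE 0.62) to 0.21 (SE 0.31) and Eef1d from 1.42 (SE 0.81) to 0.04 (SE 0.50). Leaving out the choroid plexus-like cluster in all mice gave a median of 0.07 over 46 members, with 0 past the test. This left 13 nucleus-like barcodes in Tsc2 mut/mut replicate 4, against 161 to 608 in the other mice.

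The paralog pairs and regulators showed no call either. In nucleus-like barcodes without Tsc2 mut/mut replicate 4, Eef1a2 was at 0.66 (SE 0.32), Eif4a1 at -0.22 (SE 0.26), Eif4a2 at 0.12 (SE 0.23), Eif4g1 at -0.15 (SE 0.17), Eif4g3 at -0.25 (SE 0.18), Eef2k at -0.02 (SE 0.19) and Eif4e at 0.01 (SE 0.22).

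**Figure D5:**
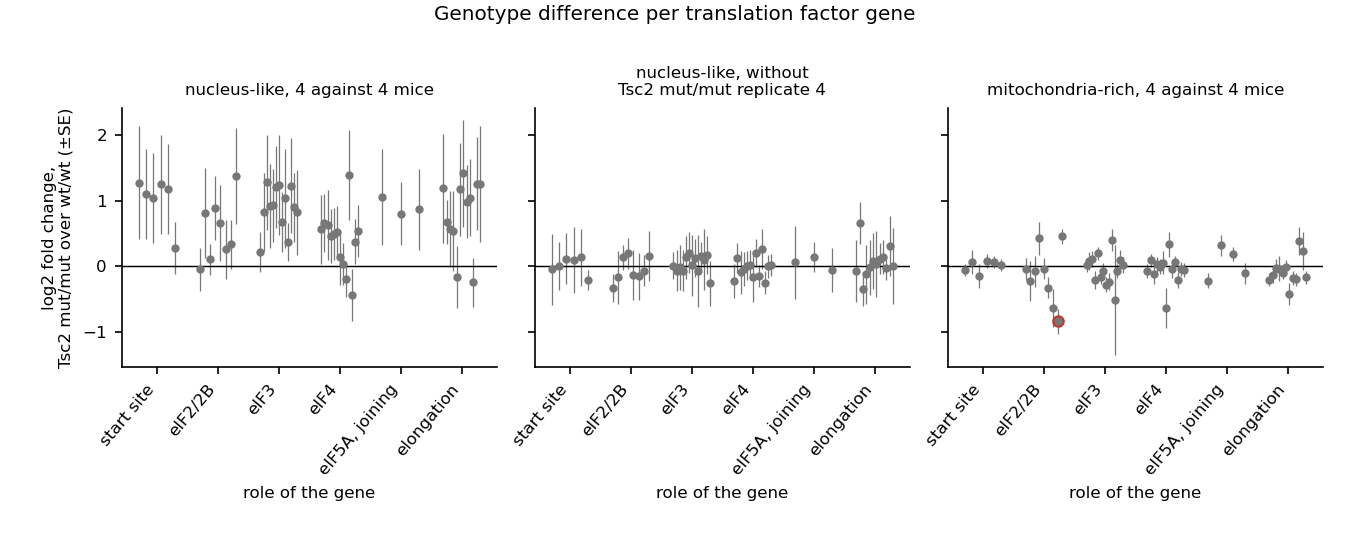
Log2 fold change, Tsc2 mut/mut over wt/wt (y axis, with SE), of each translation factor gene, grouped by role on the x axis, in the barcode sets named above each panel. Values lie near 0 once Tsc2 mut/mut replicate 4 is left out of the nucleus-like barcodes, and the only gene past adjusted p 0.05 (red) is Eif2s1 in mitochondria-rich barcodes.

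Mitochondria-rich barcodes gave smaller errors. Of 58 members 1 passed, Eif2s1, against 0.317% of 10097 genes in either direction and 0.158% lower in mut/mut. Eif2s1 encodes the alpha subunit of eIF2, whose phosphorylation slows initiation (chr12:78861819-78887010). It read 24.1, 22.9, 23.95 and 16.3 CPM in the wt/wt mice and 11.3, 13.2, 12.7 and 11.4 CPM in the mut/mut mice. Every mut/mut mouse lay below every wt/wt mouse (log2 fold change -0.84, SE 0.19, adjusted p = 0.0404 by edgeR).

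This call rests on 313 UMIs in the 8 mice, and most single mice decided whether it passed. The adjusted p of Eif2s1 was 0.0855 to 0.12 when any of wt/wt replicates 1, 2 and 3 or mut/mut replicates 1, 3 and 4 was left out, while its log2 fold change stayed between -0.79 and -0.84. Without Tsc2 mut/mut replicate 4, 0 members passed, against 0.232% of 10323 genes (0.136% lower in mut/mut), and 5 of 58 had an unadjusted p under 0.05 (8.62%, against 12.2% of all genes). In the shallowest barcodes Eif2s1 read 18.5 to 23.8 CPM in wt/wt and 12.8 to 16.6 CPM in mut/mut mice. Those barcodes come from the same libraries and resembled the mitochondria-rich ones for these genes, so they are no independent support for the call. In nucleus-like barcodes the genotypes overlapped, at 21.5 to 27.8 CPM in wt/wt and 22.2 to 30.3 CPM in mut/mut mice.

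Eif2s2, the beta subunit of the same factor, lay on the other side. It read 190 to 238 CPM in the mitochondria-rich barcodes of the wt/wt mice and 227 to 344 CPM in those of the mut/mut mice, with 1 overlapping value (log2 fold change 0.46, SE 0.11, adjusted p = 0.0674 by edgeR). DESeq2 called Eif2s2 (adjusted p = 0.0423) as its only member. The highest value, 344 CPM, was that of Tsc2 mut/mut replicate 4. Without that mouse Eif2s2 was at 0.34 (SE 0.10, adjusted p = 0.20 by edgeR). Within the 4 mitochondria-rich classes tested it was at 0.45 to 0.53, with 0 members past edgeR in any of them, against 0.149% to 0.487% of all genes. In nucleus-like barcodes Eif2s2 read 98.6 to 210 CPM in wt/wt mice, 102 to 210 CPM in mut/mut replicates 1 to 3 and 522 CPM in replicate 4.

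None of the other members passed between the genotypes in mitochondria-rich barcodes. The median was -0.05 over the members and -0.17 over the TOP members, 9 of which were below 0. Over all genes it was 0.00, with 50.4% above 0. Genes measured in the same mice are not independent, so such counts of signs are no test. Eef1a1 was at -0.20 (SE 0.10), Tpt1 at -0.17 (SE 0.10), Eef2 at -0.20 (SE 0.10), Eif3h at -0.28 (SE 0.11), Pabpc1 at -0.07 (SE 0.11), Eif4g3 at -0.21 (SE 0.12) and Eif4e at -0.01 (SE 0.11), on that scale. In all, 7 of 58 members had an unadjusted p under 0.05 (12.1%, against 13% of all genes). Beside Eif2s1, Eif2s2 and Eif3h these were Eif2d (-0.64, SE 0.29), Eif4e3 (-0.64, SE 0.31), Eef1e1 (-0.43, SE 0.17) and Eif3j1 (0.40, SE 0.17), of which Eif2d and Eif4e3 had means of 9.76 and 7.38 CPM in wt/wt and 6.21 and 4.42 CPM in mut/mut mice. Eif3j2 was at -0.52 (SE 0.84).

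Within the named classes of nucleus-like barcodes 0 members passed by edgeR or DESeq2. The SE of the members reached 0.49 in NSC/astrocyte-like, 0.60 in oligodendrocyte-like, 0.44 in microglia-like, 0.46 in ependymal-like and 0.36 in choroid plexus-like nuclei. The absence of calls therefore does not show that the genotypes were alike in these classes. Past adjusted p 0.05 were 0% of 6632 genes in NSC/astrocyte-like (4 wt/wt and 3 mut/mut mice), 0% in oligodendrocyte-like, 0.039% in microglia-like, 0% in ependymal-like and 0.714% of 2943 genes in choroid plexus-like nuclei (3 wt/wt and 4 mut/mut mice). At an unadjusted p under 0.05 the members stood at 2 of 37 in NSC/astrocyte-like nuclei (5.41%, against 7.34% of all genes), namely Eif3e (0.63) and Eif4g3 (-0.38), and at 1 of 26 in oligodendrocyte-like nuclei (3.85% against 6.79%), Eif4enif1 (1.46). They stood at 0 of 15 in microglia-like nuclei (8.2% of all genes), 1 of 8 in ependymal-like nuclei (Eif1, 1.25, against 9.45% of all genes) and 2 of 42 in choroid plexus-like nuclei (4.76% against 15.6%), Eif2s2 (0.43) and Eif4g2 (0.46). In no class but the ependymal-like, where 8 members were tested, was the members' share above that of all genes. The median over the members tested in choroid plexus-like nuclei was 0.08, against 0.82 in the pooled nucleus-like barcodes.

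The test of whether the genotype difference itself differed between nucleus-like and mitochondria-rich barcodes called 0 of 59 members and 0% of 12828 genes with edgeR, and DESeq2 called 0 members. At an unadjusted p under 0.05 there were 2 members (3.39%, against 3.16% of all genes), Eef1e1 (interaction 1.37) and Eif2s1 (1.13, SE 0.41, adjusted p = 0.799). In nucleus-like barcodes Eif2s1 was at 0.34 (SE 0.37), against -0.84 (SE 0.19) in mitochondria-rich ones, and this contrast did not pass the test. The sign of the nucleus-like value rested on Tsc2 mut/mut replicate 4, since it was -0.07 (SE 0.24) without that mouse. With each mouse left out in turn, the interaction also called 0 members.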

How the data were processed

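Single nuclei RNA sequencing (10x Genomics 3′ kit) had been done on 8 libraries, 1 per mouse. Per the labels and the study's methods, the deposited values are raw UMI counts per gene and barcode, made by the authors with Cell Ranger on GRCm38/mm10 with 60000 barcodes forced per library. The submitters' processing notes also name Seurat 4. Depth is set by 11182335 to 36773832 UMIs per library, and intervals of counts cover counting error only.

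The members and gene lists were chosen with earlier results of these data known. Barcodes with at least 300 genes were kept, and 15% and 30% mitochondrial UMIs divided them into kinds. Doublets had been gated in the sort and no caller was run. Clusters (scanpy 1.11.5, 2000 variable genes, 30 components, resolution 0.8) left out the members and the ribosomal protein and mitochondrial genes, and were named from at least 3 raised markers. UMIs were summed per mouse without mitochondrial genes and tested with edgeR 4.0.16 (quasi-likelihood, TMM, filterByExpr) with Benjamini-Hochberg adjustment at 0.05 over all genes tested. CPM are scaled to non-mitochondrial UMIs before TMM.

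Named were members past the threshold (the 8 largest and 8 smallest differences where over 24 passed), the TOP members, the paralog pairs of eEF1A, eIF4A and eIF4G, Eef2k and Eif4e. Other genes named for context were chosen after their values were seen. No class had 10 nucleus-like barcodes in every mouse, so class fits used mice with at least 10. Scripts were tested on simulated counts with 100 genes changed 2-fold and 100 changed 4-fold. Alternatives were DESeq2 1.42.0, other scalings, filters, mitochondrial cuts and minimum gene numbers, replicate blocks, and each mouse left out.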

Additional observations from a re-analysis of the deposited data

Results flagged for a closer look

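Per-mouse levels of the named genes, and the shares of members, TOP members and ribosomal protein genes, were screened in groups of 4 mice. Of 100 such groups, 5 held a value further from the rest than Dixon's 95% limit, which is about the 5% that chance gives. In nucleus-like barcodes, Eif3f read 183 CPM in Tsc2 mut/mut replicate 4 against 64.9 to 82.2 CPM in the other mut/mut mice. Of the nucleus-like barcodes of that library, 92.7% were choroid plexus-like. Eef2k read 54.5 CPM in Tsc2 wt/wt replicate 3 against 65.2 to 66.2 CPM. In mitochondria-rich barcodes, Eif4b read 76.7 CPM in Tsc2 wt/wt replicate 3 against 61.6 to 64.2 CPM, and Eif4g1 read 64.3 CPM in Tsc2 wt/wt replicate 1 against 51.3 to 53.5 CPM. Eif2s1 read 16.3 CPM in the mitochondria-rich barcodes of Tsc2 wt/wt replicate 4 against 22.9 to 24.1 CPM in the other wt/wt mice. This is the mouse whose removal lowered the adjusted p of Eif2s1 to 0.0211.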

How the results depend on the processing

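Between genotypes in mitochondria-rich barcodes 1 member, Eif2s1, was called. The count of calls fell to 0 with library sizes without TMM and with a minimum of 200 or 500 genes. It was also 0 with mitochondrial cuts at 10% and 40%, with 1 cut at 25% and with the replicate block. With no filter on low counts it was 2. Within each of 4 mitochondria-rich classes 0 members were called, but Eif2s1 did not pass the low-count filter there and was not tested. Leaving out each mouse gave 0 to 3 calls. Over the edgeR fits the log2 fold change of Eif2s1 ran from -0.46 to -0.96 and its adjusted p from 0.011 to 0.435. DESeq2 did not call Eif2s1, and the only member it called was Eif2s2. Other counts between genotypes, and the interaction, were 0 under each alternative run. The labels' replicate numbers did not pair the mice (correlations -0.66 to 0.42 in nucleus-like barcodes), and the replicate block gave 0 calls in each other genotype comparison.

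Between kinds of barcode, members higher in nucleus-like barcodes (5 as reported) numbered 12 without TMM, 3 with mitochondrial genes kept, 3 without the choroid plexus-like cluster, and 2 with the mut/mut mice alone or within oligodendrocyte-like, microglia-like or choroid plexus-like barcodes. Leaving out each mouse gave 3 to 5, with 3 without wt/wt replicates 1 and 4 and mut/mut replicates 2 and 3. The mut/mut mice alone gave 26 calls, 24 of them higher in mitochondria-rich barcodes, and choroid plexus-like barcodes gave 4, 2 of them so. With no replicate block there were 46 calls (5 higher in nucleus-like barcodes), and DESeq2 gave 49. Dropping TMM raised all genes by about the same amount (median -0.03 to 0.57), and with it turned the sign of the 6 members from -0.60 to 0, Eif3a (0.0088), Eif4e2 (0.37), Eif4e3 (0.61), Eif2b1 (0.23), Eif2b4 (0.16) and Eif1a (0.39). Signs turned without Tsc2 mut/mut replicate 4 for Eif2a (-0.07), Eif2b2 (-0.26) and Eif2s1 (-0.22), and without the choroid plexus-like cluster for Eif2a (-0.49), Eif2b2 (-1.59) and Eif2s1 (-0.92). They turned within microglia-like barcodes for Eif4g1 (-0.67), and within choroid plexus-like barcodes for Eif2s2 (0.19), Eif3c (0.20), Eif3m (0.74), Eif4a2 (1.46), Eif4g2 (1.11), Eef1a1 (0.066), Eef1d (0.0016), Tpt1 (0.39), Eif1 (0.63), Eif1b (0.0012), Eif5 (0.80) and Eif5a (0.18). The cause was not tested. Leaving out the 5 percent of barcodes with most UMIs could not be fitted for choroid plexus-like nuclei between genotypes. The alternatives within microglia-like, choroid plexus-like and mitochondria-rich classes, and without the choroid plexus-like cluster, were chosen after seeing the data. Depth limits the members with few UMIs most.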

Other observations

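The eIF3j subunit is encoded by 2 near-identical copies, Eif3j1 (28.05 kb) and Eif3j2 (2.38 kb), between which reads can be split. In mitochondria-rich barcodes Eif3j2 read 29.5, 44.4, 19.2 and 5.09 CPM in Tsc2 wt/wt replicates 1 to 4 and 23.9, 26.3, 2.85 and 28.1 CPM in Tsc2 mut/mut replicates 1 to 4. It was lowest in 1 mouse of each genotype, wt/wt replicate 4 and mut/mut replicate 3. Eif3j1 read 67.0, 40.6, 63.0 and 74.4 CPM in the wt/wt mice and 72.9, 63.4, 97.8 and 78.5 CPM in the mut/mut mice, and was lowest in the mouse with the most Eif3j2. The sum of the copies was 79.5 to 107 CPM, a narrower range than that of either copy. In the shallowest barcodes the same 2 mice had the lowest Eif3j2 (5.57 and 7.94 CPM, against 21.3 to 40.05 CPM in the others). The values of either copy alone are therefore uncertain, and what sets them apart in these mice was not tested.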
